A study of Apis cerana with 76 samples.

Results

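miR-210 is described here across the life stages and organs of the Asian honey bee, Apis cerana. Its entries were found by name, on either strand, in the authors' miRNA count tables. The name was found at 1 of 146 entries of the stage table and at 1 of 171 entries of the organ table. Both were the 3′ strand, miR-210-3p, and entries of the 5′ strand numbered 0. miR-210 was chosen by its measured levels over these stages and organs, so those levels and the ratios between them are given as a description, with no p-value. A fit over all entries of the organ table, of drone against worker organs, is used for its estimate and for the other entries.

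Small RNA of wild-type bees was sequenced in 76 libraries, of which 54 came from 18 stage groups of 3 and 22 from 11 organ groups of 2. By the labels and the authors' sequencing statistics, the stage groups were egg (E), larvae (L1 to L5), pupae with white eyes (W), red eyes (R), dark-red eyes (DR) and dark-red eyes and body (DRB), young adult workers or nurses (YA), old adult workers or foragers (OA), male drones (D), queen larvae (QL), queen pupae with white (QW), red (QR) and dark-red eyes (QDR), and adult queens (QA). No caste is given for the larvae and pupae without a Q. The organ groups were brain, ventriculus (the midgut), rectum, ovary and venom gland of workers, brain, ventriculus, rectum, testis and mucus gland of drones, and queen ovary. The labels give no age in days and no treatment, and they do not say which parts of the head a dissected brain included. Each group was a single column of the tables, pooled by the authors over its libraries, so no spread between libraries could be had within a group. Every interval printed here is a 95% counting interval that covers counting error only.

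MicroRNAs are short RNAs that pair with messenger RNAs, mainly through bases 2 to 8 of the miRNA (the seed), and lower their output. In Drosophila, miR-210 is known from the nervous system and the eye, where its loss leads to degeneration of photoreceptors, and it has been linked to circadian behaviour. Its mammalian namesake is best known as a miRNA induced by low oxygen.

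The sequences deposited for miR-210-3p are shown because the stage and organ tables counted it under different lengths. Letters run 5′ to 3′, and the capitals mark the seed.
miR-210-3p, stage table and the authors' list of conserved miRNAs: uUGUGCGUgugacagcggcuau
miR-210-3p, organ table: uUGUGCGUgugacagcggcu
The stage sequence had 22 bases and the organ sequence 20, and the organ sequence was the stage sequence without its last 2 bases. The seed was therefore the same in both. Among 99 names held by both tables, 37 had another sequence in each, and in 19 of these the organ sequence was a shorter start of the stage sequence. Levels were for this reason read within a table and not between the tables.

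The seed UGUGCGU was shared with 0 other entries of the stage table, the organ table, the list of 200 conserved miRNAs and the list of 13 further miRNAs. Neither bases 2 to 7 nor bases 3 to 8 of miR-210-3p recurred in another entry of these 4 sets. No other counted miRNA thus had the same core for pairing, whose match in a target reads ACGCACA. The mature sequence began with U, as did 82 of 146 entries of the stage table (56.2%). Its 22 bases held 54.5% G and C, against a median of 47.6% over the other entries.

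Depth differed widely between columns. The libraries held 3.34 to 42.4 M reads in the stages and 8.71 to 14.9 M in the organs. The miRNA counts of a column summed to between 72873 and 19772824 in the stages and between 184457 and 8476499 in the organs. Set against the sequenced reads of the group, miRNA counts made up 0.213% to 68.5% in the stages and 0.704% to 43.7% in the organs. Levels are therefore given on 2 scales. The main scale is counts per M miRNA counts after TMM scaling (CPM), which sets miR-210-3p against the other miRNAs of the column. The other is counts per M sequenced reads of the group, which sets it against all small RNA sequenced and takes each column as the sum of its libraries. Ratios are differences of mean log2(CPM + 1) unless another scale is named, and they understate the change of entries near 1 CPM. The interval beside a ratio is that of the scaled counts without the added 1, so near 1 CPM it lies off centre, towards larger changes. A ratio is called at 2-fold or more when no column of one side reaches into the range of the other and the higher side has a mean of at least 50 CPM. In bulk samples such as these, fewer cells of a type and less RNA per cell cannot be told apart.

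miR-210-3p was low in larvae, higher in every pupal column without a Q, higher again in old workers and far higher in drones. In the larvae it stood at 1.57 CPM in L1, 2.13 in L2, 6.0 in L3, 7.65 in L4 and 10.9 in L5. These levels rested on 14 to 36 counts per column. In the pupae it stood at 61.5 CPM in W, 65.9 in R, 36.0 in DR and 76.4 in DRB, from 485 to 1591 counts. The lowest pupal column thus lay above the highest larval column, and DR was the low column among the pupae.

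Adult workers and drones lay above the pupae. The level was 90.02 CPM in YA, 256 in OA and 1594 in D, from 943, 3027 and 27061 counts. The drone column alone held 76.4% of all miR-210-3p counts of the stage table. Within its own column miR-210-3p ranked 27 of 146 entries in D and 50 in OA, compared with 132 in L1.

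The egg and the queen columns had few counts. The egg stood at 27.3 CPM from 14 counts, with an interval of 14.9 to 45.8 CPM. Queen larvae stood at 9.68 CPM, QW at 16.5 and QR at 32.7, from 7, 11 and 22 counts. QDR stood at 81.0 CPM from 917 counts, and adult queens at 189 CPM from only 15 counts, with an interval of 106 to 311 CPM. The queen levels went up from column to column on the CPM scale, but QDR was the queen column with a count above 22.

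On the scale of sequenced reads the low columns looked alike. The larvae had 0.317 (L1), 0.379 (L2), 0.583 (L3), 0.538 (L4) and 0.604 (L5) counts of miR-210-3p per M sequenced reads. The egg had 0.237, QL 0.217, QW 0.303, QR 0.676 and QA 0.439. Against these, W had 17.1, R 19.6, DR 18.7, DRB 55.1, QDR 31.5, YA 38.7, OA 86.4 and D 859. No column lay between 0.676 and 17.1 on this scale. The CPM of the egg, the younger queen stages and adult queens thus stood on small miRNA totals, since miRNAs made up 0.503% of sequenced reads in the egg, 2.32% in QL, 1.79% in QW, 2.12% in QR and 0.213% in QA, compared with 5.89% to 25.6% in the larvae L1 to L5. The part of this miRNA share in the CPM levels was not tested.

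**Figure D1:**
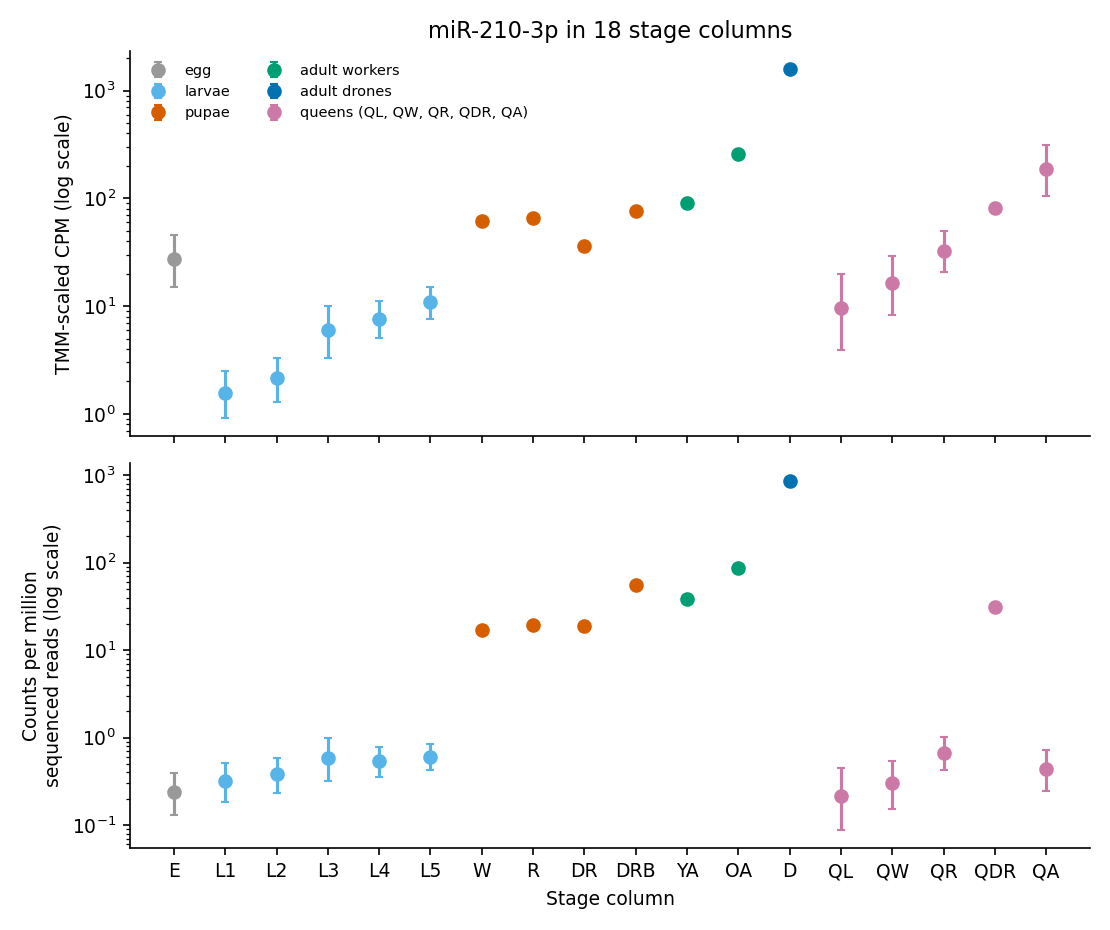
Level of miR-210-3p in the 18 stage columns, above in TMM-scaled CPM and below in counts per M sequenced reads (both axes log scale); each point is a pooled column of the authors, coloured by class, and bars are 95% counting intervals. D is highest on both scales, at 1594 CPM and 859 per M reads, while QA is at 189 CPM above and at 0.439 per M reads below.

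In order of CPM, drones came first, then OA and QA, whose counting intervals overlapped. YA, QDR and DRB followed with overlapping neighbours, then R and W, which also overlapped. From DR down through QR, E, QW, L5, QL, L4, L3, L2 and L1, each column overlapped the next. The neighbours whose intervals were apart were D and OA, QA and YA, DRB and R, and W and DR. The order among the low columns was therefore not resolved beyond counting error step by step.

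The pupae W to DRB lay above the larvae throughout. The mean was 59.9 ± 17.1 CPM in the pupae W to DRB (SD, n = 4 columns) and 5.65 ± 3.9 CPM in the larvae (SD, n = 5 columns), a log2 ratio of 3.38 (SD within sides 0.78). This was the highest of 84 entries with at least 50 CPM on a side, of which 11.9% were called higher in pupae and 21.4% lower. It was followed by miR-193-3p at 2.79, miR-927a-3p at 2.78 and let-7-5p, a timing miRNA of metamorphosis, at 2.57. From L5 to W alone the log2 ratio was 2.39 (interval 2.01 to 3.02), rank 2 of 78 entries, of which 19.2% were called higher. Per M sequenced reads the log2 ratios were larger, 5.69 for pupae against larvae and 4.82 for W against L5.

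Within larvae and within pupae the picture depended on the scale. L5 stood above L1 by a log2 ratio of 2.21 (interval 1.93 to 3.72) in CPM and of 0.93 per M sequenced reads. Both columns were under 50 CPM, so this ratio was not called. The egg stood above L1 by 3.46 in CPM (interval 2.99 to 5.23) and below it per M sequenced reads, at -0.41. DRB differed from W by 0.31 (interval 0.17 to 0.46) in CPM and by 1.69 per M sequenced reads, and 30.3% of entries were called higher in DRB. Neither the egg level nor a course through the larvae thus held on both scales in size, and the sign for the egg did not hold.

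**Figure D2:**
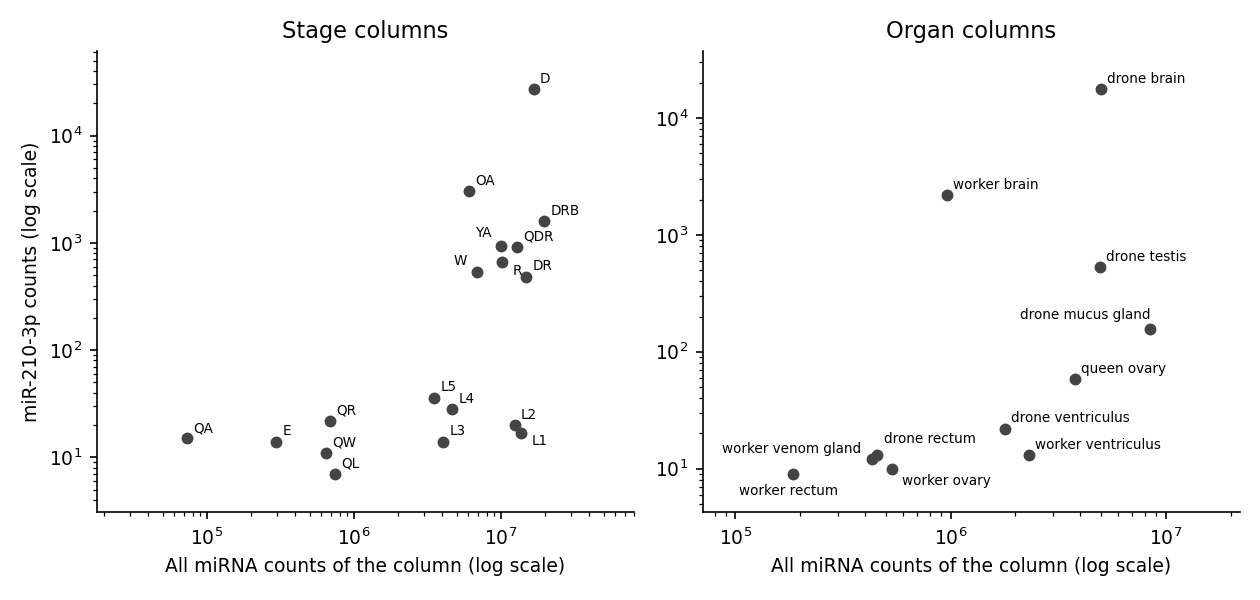
Counts of miR-210-3p in a column (vertical axis, log scale) against all miRNA counts of that column (horizontal axis, log scale), for the 18 stage columns (left) and the 11 organ columns (right). In the stages, E, L1 to L5, QL, QW, QR and QA lie at 7 to 36 counts while the column totals range from 72873 in QA to 13733345 in L1.

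Among adults, miR-210-3p was higher in foragers than in nurses and higher in drones than in both. OA stood above YA by a log2 ratio of 1.5 (interval 1.40 to 1.61), rank 10 of 82 entries, of which 15.9% were called higher. With column totals it was 2.39 and with DESeq2 size factors 1.74. Adult workers, with a mean of 173 CPM, stood above the pupae W to DRB by 1.38 (SD within sides 0.66), and 12.3% of entries were called higher and 25.9% lower. YA against DRB gave 0.23 (interval 0.12 to 0.35) in CPM and -0.51 per M sequenced reads, so the step from the last pupa to the young adult had no direction common to both scales. The higher level of adult workers came mainly from OA.

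The drone excess was large against each kind of worker. Drones stood above YA by a log2 ratio of 4.13 (interval 4.05 to 4.24), rank 3 of 80 entries with 22.5% called higher. They stood above OA by 2.63 (interval 2.58 to 2.69), rank 1 of 77 entries with 32.5% called higher. Against OA the ratio was smaller under the other scalings of miRNA counts, 1.70 with column totals, 1.51 with column totals without the 3 most abundant entries and 2.30 with DESeq2 size factors, and larger at 3.31 per M sequenced reads. Against the mean of both worker columns the ratio was 3.38, behind miR-34-5p at 3.69 and ahead of miR-317-3p at 3.21, with 20.0% of entries called higher. miR-2796-3p, an insect miRNA known from brain, was 4429 CPM in drones and 4030 CPM on average in adult workers, a log2 ratio of 0.14. A drone level far above the workers was not seen in that 1 miRNA. The 9 entries of the neural list below with at least 50 CPM ran from -0.60 for miR-315-5p to 1.04 for miR-927a-3p. Their median was 0.14, against 0.20 over all entries.

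Queen columns could be set against columns of the same eye colour. QW lay below W by a log2 ratio of -1.84 (interval -2.91 to -1.05), and 15.0% of entries were called lower. QR lay below R by -0.99 (interval -1.69 to -0.40), short of 2-fold. QDR lay above DR by 1.15 (interval 1.01 to 1.33), and 15.2% of entries were called higher. The sign thus turned between the red-eyed and the dark-red-eyed queen pupae in CPM. Per M sequenced reads the log2 ratios had the same signs, at -5.82, -4.86 and 0.76. QW and QR rested on 11 and 22 counts. miRNAs made up 1.79% of sequenced reads in QW and 21.98% in W, and 2.12% in QR and 30.2% in R. In QDR and DR they made up 44.4% and 57.1%. The part of these shares in the ratios per M sequenced reads was not tested.

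In the queen series the step from QR to QDR stood out per M sequenced reads but not in CPM. QW stood above QL by a log2 ratio of 0.71 and QR above QW by 0.95, and both counting intervals included 0. QDR stood above QR by 1.28 (interval 0.70 to 1.99) in CPM and by 5.55 per M sequenced reads, and 32.9% of entries were called higher. In CPM the next step, from QDR to QA, was of similar size at 1.21. miRNAs made up 2.12% of sequenced reads in QR and 44.4% in QDR, and the part of this in the ratio of 5.55 was not tested. The pupae W, R and DR without a Q, at 17.1 to 19.6 per M sequenced reads, were already near the QDR value of 31.5. Queen larvae overlapped the larvae L1 to L5, with a log2 ratio of 0.92 in CPM and of -1.12 per M sequenced reads.

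The level of adult queens depended on the scale. In CPM, QA stood above QDR by a log2 ratio of 1.21 (interval 0.38 to 1.95) with 19.8% of entries called higher, and above YA by 1.06 (interval 0.23 to 1.80) with 18.1% called higher. Per M sequenced reads, QA stood below QDR by -6.17 and below YA by -6.46. Against drones, QA was lower on both scales, by -3.07 (interval -3.92 to -2.36) in CPM, where 34.9% of entries were called lower, and by -10.94 per M sequenced reads. Of the 7 entries of the brain marker list, 3 had 0 counts in QA, namely miR-124-5p, miR-137-3p and miR-9-3p/79. Their medians over the stage columns were 8.23, 3.15 and 14.1 CPM, while 3 counts in QA stood for 37.8 CPM. At this depth the zeros cannot be told from low levels. miR-2796-3p of the same list stood at 1624 CPM in QA.

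In the organs, miR-210-3p was highest in the brains. Worker brain held 2200 counts, or 2871 CPM, and drone brain 17611 counts, or 5154 CPM. These columns together held 96.0% of its organ counts. miR-210-3p ranked 28 of 171 entries in worker brain and 15 in drone brain.

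Outside brain the highest column was drone testis, at 71.6 CPM from 532 counts. Worker rectum had 33.0 CPM, worker venom gland 30.6, drone rectum 26.6, queen ovary 20.2, drone mucus gland 16.7, drone ventriculus 16.0, worker ovary 12.1 and worker ventriculus 6.61. These 8 columns held 9 to 156 counts, and in the order just given each overlapped the next within its counting interval. Drone brain, worker brain and testis were each apart from the column below. Neither brain overlapped any other organ.

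Per M sequenced reads the brains again led, with 776 in drones and 96.4 in workers. Testis followed with 27.6, mucus gland with 8.03 and queen ovary with 3.25. The other 6 organs had 0.343 to 0.873. Worker rectum stood at 33.0 CPM from 9 counts and at 0.343 per M sequenced reads, the lowest of the 11 columns on that scale.

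**Figure D3:**
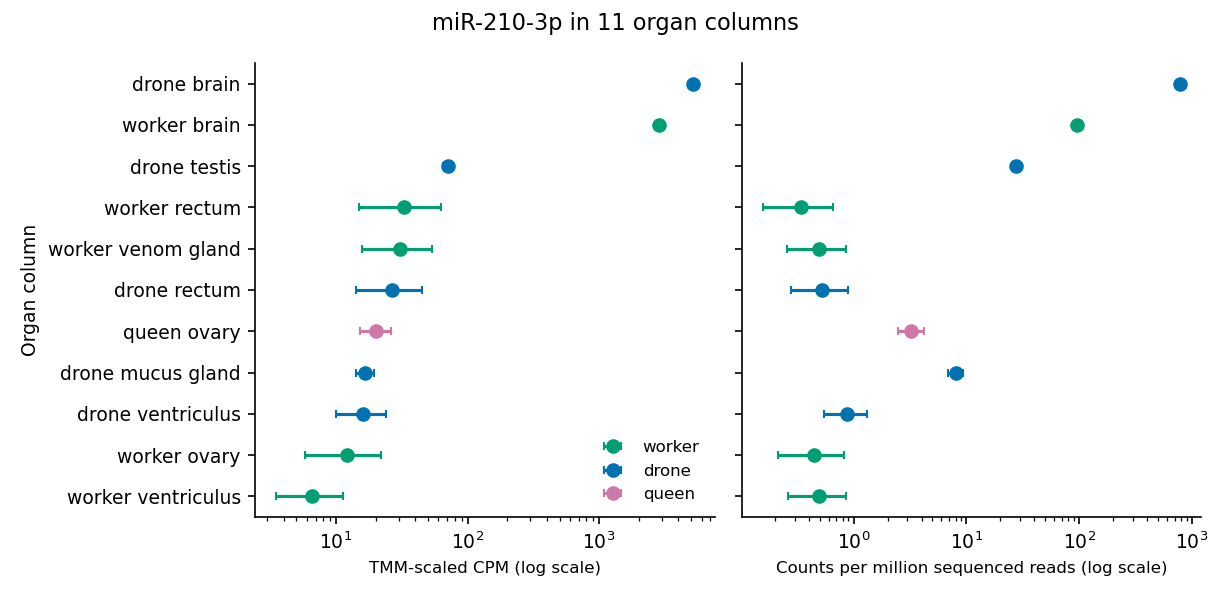
Level of miR-210-3p in the 11 organ columns, left in TMM-scaled CPM and right in counts per M sequenced reads (both log scale); each point is a pooled column, coloured by the kind of bee, and bars are 95% counting intervals. Drone brain (5154 CPM) and worker brain (2871 CPM) stand apart from testis (71.6 CPM) and from the other organs, which lie at 33.0 CPM or less.

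Against all 9 other organs, the brains were higher by a log2 ratio of 7.43 (SD within sides 0.90), rank 2 of 104 entries, of which 16.3% were called higher and 4.81% lower. miR-2796-3p came first at 7.48, and miR-981-5p at 7.11 and miR-124-5p, a neuronal miRNA of many animals, at 6.60 came next. Against the gut organs, ventriculus and rectum, the mean was 4013 CPM in brain and 20.5 CPM in gut, a log2 ratio of 7.69 (SD within sides 0.88) with 31.9% of entries called higher and 12.1% lower. Within workers alone the brain ratio was 7.31, rank 3 of 95 entries with 30.5% called higher. Within drones alone it was 7.53, rank 1 of 92 entries with 28.3% called higher.

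**Figure D4:**
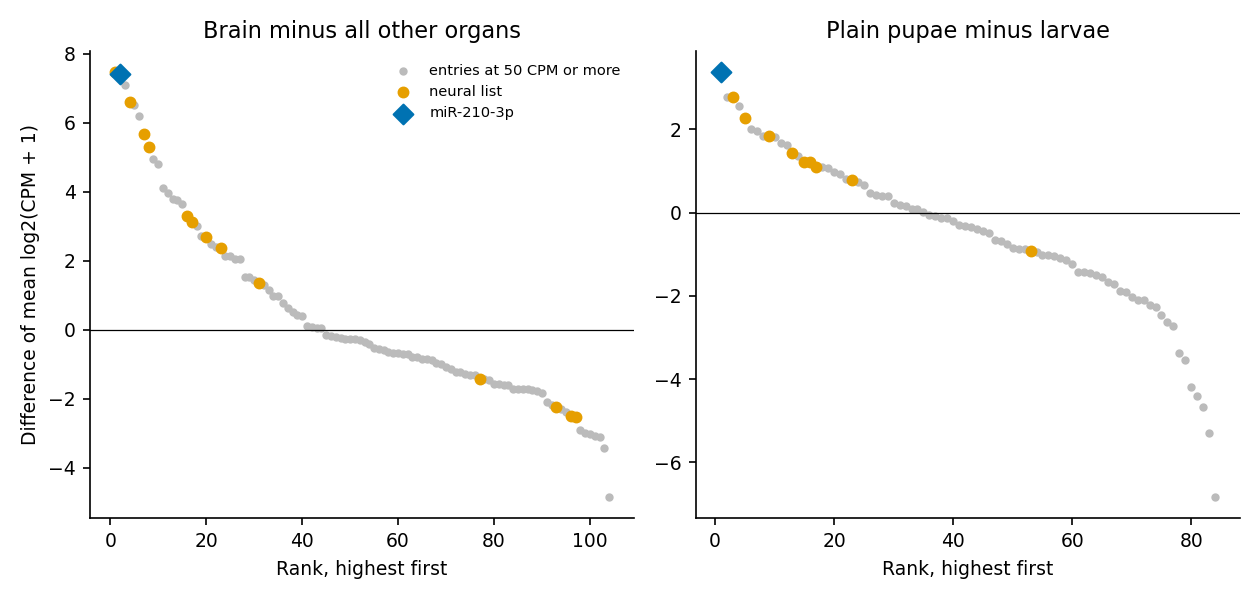
Log2 ratios of all entries with at least 50 CPM on a side, sorted from highest to lowest, for brain against all other organs (left, 104 entries) and for pupae W to DRB against larvae (right, 84 entries); the diamond is miR-210-3p and orange points are the neural list. miR-210-3p is at rank 2 on the left (7.43) and rank 1 on the right (3.38); it was chosen for such a pattern, so its rank is no independent result.

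The labelled brains were set beside brain markers. miR-2796-3p stood at 47577 CPM in worker brain and 39507 in drone brain, against 66.1 to 836 elsewhere. miR-124-5p stood at 110 and 241 CPM in these columns, against 0 to 12.7 elsewhere. The summed level of the 7 marker entries was 48763 CPM in worker brain and 41104 in drone brain, against 4747 to 29868 in the other organs, and the markers miR-9, miR-137 and miR-219 were highest outside brain. The midgut markers did not keep to the gut, since their sum was 174775 CPM in worker ventriculus and 163322 in drone ventriculus but 385007 in queen ovary, of which 383119 was miR-1175-3p.

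Muscle miRNAs were also counted in the brain columns. The muscle entries miR-1-3p and miR-133-3p summed to 63938 CPM in worker brain and 36787 in drone brain, against 17243 to 431468 in the other organs. In the stages, the same sum was 22424 to 64506 CPM in larvae L1 to L5, 78589 to 269527 in the pupae W to DRB, 313778 in YA, 175415 in OA, 277115 in QA and 370087 in drones. YA thus had a muscle sum near that of drones with 90.02 CPM of miR-210-3p against 1594. The part of the muscle sum in the levels of miR-210-3p was not tested. Drone mucus gland had the highest muscle sum of the organs, 431468 CPM, and 16.7 CPM of miR-210-3p.

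Between the brains, the drone level was above the worker level by a log2 ratio of 0.84 (interval 0.78 to 0.91), short of 2-fold, while 20.9% of entries were called higher and 19.8% lower in drone brain. The rank of miR-210-3p was 22 of 86. Per M sequenced reads drone brain was 8.05-fold above worker brain. Those columns differed in the share of reads that were miRNA, 22.1% in drone brain and 4.22% in worker brain, and the part of this in the ratio was not tested. The direction was the same on both scales, and other scalings of the miRNA counts gave log2 ratios of 0.56 to 0.62.

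In the gut the drone columns did not stand above the worker columns in both organs in CPM. Drone ventriculus was above worker ventriculus by a log2 ratio of 1.16 (interval 0.22 to 2.39), from 22 and 13 counts. Drone rectum differed from worker rectum by -0.30 (interval -1.65 to 1.09), from 13 and 9 counts. Per M sequenced reads the drone column was the higher in both organs, by 0.81 in ventriculus and 0.60 in rectum, from the same few counts. The sign for rectum thus did not hold on both scales. Over the 6 columns of brain, ventriculus and rectum, with organ as a term, edgeR's quasi-likelihood fit gave a log2 difference of 0.41 (SE 0.41) in drones. No p is given for it, since these columns are among those by which miR-210 was chosen. Of 108 entries tested, 0 were called at an adjusted p of 0.05, and the share called was 0.0% in each direction. At an unadjusted p under 0.05 there were 5 entries, and the Wald test of DESeq2 called 3. The fit had 2 residual degrees of freedom, and the SE was as large as the difference.

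In the gonads, testis stood above both ovaries. The level was 71.6 CPM in testis, 20.2 in queen ovary and 12.1 in worker ovary, a log2 ratio of 2.12 (SD within sides 0.50) with 25.5% of entries called higher. Against mucus gland, rectum and ventriculus of drones the testis ratio was 1.84 (SD within sides 0.39), and 44.0% of entries were called higher there. Mucus gland stood below testis by -2.04 (interval -2.37 to -1.84), with 48.9% of entries called lower. The ovaries differed by 0.70, queen above worker, with an interval of -0.23 to 1.88 that included 0. The rank of miR-210-3p was 21 of 98 entries for testis against ovaries, where the median log2 ratio of all entries was 0.0012, and 38 of 91 for testis against the drone organs, where it was 0.75.

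The entries whose levels followed miR-210-3p most closely were found by Spearman's rho of log2(CPM + 1) over the columns. In the stages, over 18 columns and 85 candidate entries with a mean of at least 50 CPM, these were miR-1-3p (rho 0.905), miR-927b-5p (0.884), miR-2796-3p (0.874), miR-927a-3p (0.843) and miR-3786-5p (0.810). In the organs, over 11 columns and 97 candidates, they were miR-3719-3p (rho 0.955), miR-133-3p (0.827), miR-927b-5p (0.782), miR-252a-5p (0.727) and miR-993-3p (0.700). miR-927b-5p was thus named in both tables. The columns of a table share the scaling, so these values are a description and carry no p. In the stages, E, QL, QW, QR and QA had few counts and also a low miRNA share of reads. The larvae L1 to L5 had few counts at shares of 5.89% to 25.6%. Without D and L1, rho in the stages was 0.865 for miR-1-3p and 0.850 for miR-927b-5p, and without the brains rho in the organs was 0.967 for miR-3719-3p and 0.617 for miR-927b-5p.

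The sequences of the closest entries are shown to set their seeds, in capitals, beside the UGUGCGU of miR-210-3p. Those of miR-1-3p, miR-2796-3p and miR-927b-5p are from the stage table and that of miR-3719-3p is from the organ table.
miR-1-3p: uGGAAUGUaaagaaguauggag
miR-927b-5p: uUUUAGAAuuuguacgcucugu
miR-2796-3p: gUAGGCCGgcggaaacuacuugc
miR-3719-3p: uACGGAUUgcgugacuuuucg
None of these seeds was that of miR-210-3p, so a similar level went with a different set of bases for pairing. They also differed in level. miR-1-3p, a muscle miRNA, ran from 22223 CPM in L1 to 366338 in D. miR-927b-5p ran from 15.2 CPM in QL to 297 in D, and in the organs it stood at 3025 CPM in worker brain and 2142 in drone brain. miR-3719-3p was highest in testis, at 552 CPM, above 296 in worker brain and 318 in drone brain, unlike miR-210-3p.

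miR-210-3p had a wider range than these entries. Between L1 and D it went from 1.57 to 1594 CPM, while miR-2796-3p went from 174 to 4429 CPM. miR-927b-5p was 295 CPM in OA and 297 in D, and miR-2796-3p was 4431 and 4429 CPM in these columns, where miR-210-3p went from 256 to 1594. The other 3 were higher in D than in OA, miR-1-3p at 366338 against 174296 CPM, miR-927a-3p at 391 against 148 and miR-3786-5p at 261 against 182. In drones, 3 of the 5 thus lay above foragers and the other two lay level with them.

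**Figure D5:**
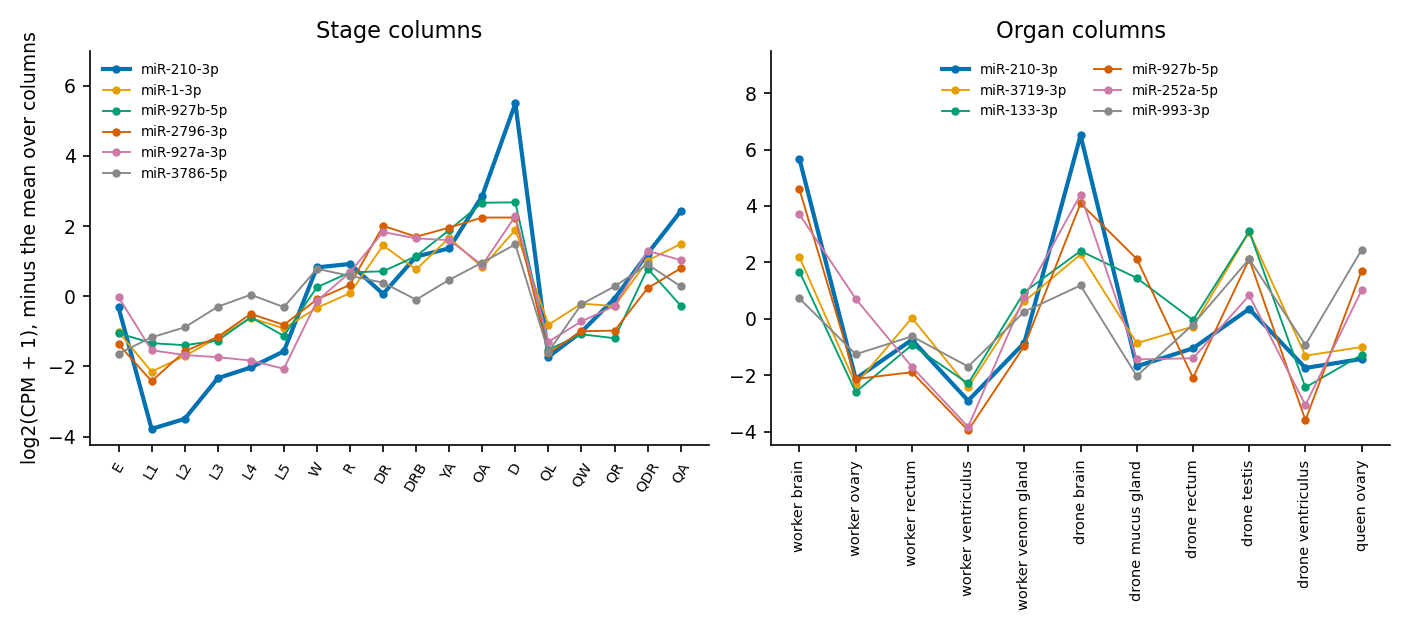
Levels of miR-210-3p (thick line) and of the 5 entries most like it by Spearman's rho, as log2(CPM + 1) minus the mean of that entry over the columns shown, in the 18 stage columns (left) and the 11 organ columns (right). Lines join columns for reading only. miR-210-3p is lowest in L1 (1.57 CPM) and highest in D (1594 CPM) on the left, and highest in drone brain (5154 CPM) on the right.

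A neural list of 11 miRNA names (miR-7, miR-9, miR-124, miR-137, miR-190, miR-219, miR-315, miR-927, miR-929, miR-932 and miR-2796), which does not hold miR-210, was set beside it. Of its 9 stage entries with at least 50 CPM, 5 were called higher in pupae than in larvae and 0 lower, where 11.9% of all entries were called higher and 21.4% lower. The 5 were miR-2796-3p, miR-7-5p, miR-927a-3p, miR-927b-5p and miR-9a-5p. The median log2 ratio of the list was 1.23, against -0.33 over all entries. miR-315-5p, at 12621 CPM in pupae and 5096 in larvae, had a log2 ratio of 1.09 but its columns overlapped. miR-190-5p went the other way, at 1060 CPM in pupae and 2016 in larvae (-0.91), also with overlapping columns. Under 50 CPM the members were mixed. miR-9-3p/79 was at -1.44, miR-137-3p at -0.79 and miR-124-5p at -0.05. miR-929-5p was at 2.07, miR-219-3p at 1.48 and miR-932-5p at 0.77. In adult workers against pupae 1 was called higher, miR-927b-5p, and 3 lower, namely miR-315-5p, miR-9-5p and miR-9a-5p, where 12.3% of all entries were called higher and 25.9% lower. The median was -0.48, against -0.44 over all entries. In drones against adult workers 1 of 9 was called higher, miR-927a-3p at 1.04, a share near the 20.0% of all entries called higher. With DESeq2 size factors 0 of 9 were called higher, and with column totals 0 were called higher and 2 lower. Shares over all entries are given here for TMM only, and the median of all entries was lower under these scalings. It was -0.05 and -0.35, against 0.20 with TMM.

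In the organs, 5 of 13 neural entries were called higher in brain than in all other organs, namely miR-124-5p, miR-2796-3p, miR-7-5p, miR-927b-5p and miR-929-3p, and 1 lower, miR-190-5p, where 16.3% of all entries were called higher and 4.81% lower. The median log2 ratio of the list was 2.69, against -0.34 over all entries. Against the gut alone, 9 of 12 were called higher and 2 lower, where 31.9% of all entries were called higher and 12.1% lower. In drone against worker brain 2 of 11 were called higher, miR-124-5p and miR-932-5p, and 1 lower, miR-7-5p, no more than the shares of 20.9% and 19.8% over all entries. In queen pupae against queen larvae 5 of 8 were called higher and 0 lower, where 17.7% of all entries were called higher and 19.0% lower. By edgeR 0 of 13 were called between drone and worker organs, where 0 of all 108 entries tested were called.

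A second list held 6 names with known roles in the sense organs or the clock of flies (miR-7, miR-263, miR-276, miR-279, bantam and let-7). Of its 8 stage entries with at least 50 CPM, 2 were called higher in pupae than in larvae, let-7-5p and miR-7-5p, and 1 lower, miR-279c-3p, where 11.9% of all entries were called higher and 21.4% lower. With DESeq2 size factors or column totals 4 of 8 were called higher, but shares over all entries are given here for TMM only. The list median was then 0.71 and 0.96, against -0.09 and 0.21 over all entries. In drones against adult workers 3 of 8 were called higher, miR-276-3p, miR-279c-3p and miR-279d-3p, where 20.0% of all entries were called higher. With DESeq2 size factors or column totals 1 of 8 was called higher. The median of all entries was then -0.05 and -0.35, against 0.20 with TMM. In adult workers against pupae 0 of 8 were called higher and 1 lower, miR-279d-3p, where 12.3% of all entries were called higher and 25.9% lower. In queen pupae against queen larvae 3 of 8 were called higher, where 17.7% of all entries were. In brain against all other organs 1 of 10 was called higher, miR-7-5p, and 1 lower, miR-279c-3p, where 16.3% of all entries were called higher and 4.81% lower. With column totals 0 of 10 were called higher and 2 lower, where the median of all entries was -0.87, against -0.34 with TMM. By edgeR 0 of 10 were called between drone and worker organs, where 0 of all 108 entries tested were called.

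The scalings shifted all entries together. In pupae against larvae the median ratio of all entries lay higher by 0.20 with DESeq2 size factors and by 0.46 with column totals than with TMM. In brain against gut these shifts were -0.03 and -0.45. In brain against all other organs the median lay lower by 0.54 with column totals. The ratio of miR-210-3p in pupae against larvae was 3.52 and 3.74 under these scalings, and in brain against gut 7.66 and 7.23.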

How the data were processed

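Small RNA libraries were made from 1 ug of total RNA with a small RNA kit and sequenced on Illumina instruments, per the labels' protocols. The authors deposited miRNA read counts with 1 column per group, in which libraries were pooled. Whether a column is a sum or a mean of its libraries is not stated in the sources used here. The DRB column held 19772824 counts and its largest library 15797378 reads. A mean could not reach that count if each read was counted once, so that column reads as a sum. Their sequencing statistics gave reads per library as counts, and the authors' lists gave miRNA names and sequences with lengths in bases. bcl2fastq and kallisto are named in the submitters' processing notes; settings and a genome build are not given in the sources used here, so no coordinates are printed.

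Counts were scaled by TMM over all entries of a table, each table on its own, with edgeR 4.0.16 in R 4.3.3. Log2 ratios used CPM plus 1. Counting intervals are exact Poisson (levels) or binomial (ratios) at 95%, and those of ratios were computed without the added 1. Drone against worker organs was tested two-sided over all entries with edgeR's quasi-likelihood test after filterByExpr with a minimum count of 10 and Benjamini-Hochberg adjustment; for miR-210-3p itself the estimate alone is given. Single libraries had been planned as its units; pooled columns took their place. DESeq2 1.42.0 was an alternative. The edgeR test was also run on simulated counts, drawn from a single mean profile for all columns with no differences between organs. That run cannot show how the fit behaves where organs differ. Named miRNAs were miR-210 entries, entries of its seed, the members of the neural and sensory lists, and the 5 entries most like it per table; miR-193-3p, miR-981-5p, miR-34-5p, miR-317-3p and the marker entries, and which members are named, were chosen after their values were seen. The members and lists were chosen with earlier results of these data known. Not used were 0 columns of samples.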

Additional observations from a re-analysis of the deposited data

Results flagged for a closer look

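Among the 9 organs other than brain, drone testis stood away from the rest, at 71.6 CPM of miR-210-3p from 532 counts. The next column was worker rectum at 33.0 CPM, and the gap between them made up 0.594 of the range of these 9 columns. These levels are among those by which miR-210 was chosen, so the gap is a description and no test. With column totals in place of TMM the values were 108 CPM in testis and 48.8 in worker rectum. With DESeq2 size factors they lay closer, at 57.3 and 37.5 CPM. The worker rectum value rested on 9 counts, so the size of the gap depended on the scaling and on few counts. Per M sequenced reads testis had 27.6 and the next organ, mucus gland, 8.03.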

How the results depend on the processing

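Every level rested on a pooled column, 10 of 18 stage columns and 6 of 11 organ columns held at most 36 counts, and the order among these is limited by depth. The scale with the largest effect was counts per M sequenced reads, which was chosen after seeing the data. It gave log2 ratios of 5.69 for pupae against larvae and 9.02 for brain against gut, and it turned adult queens against QDR to -6.17 and against YA to -6.46; of 32 single ratios it moved 22 and left 8 within counting error. The cause was not tested. Other scalings and pseudocounts gave 2.64 to 3.74 for pupae against larvae and 7.23 to 8.33 for brain against gut. Leaving out a column in turn gave 3.09 to 3.65 and 7.26 to 8.11. For drone against worker organs, alternatives gave log2 differences of 0.36 to 0.84, and leaving out a column gave 0.14 to 0.91, with 0 to 0 entries called. DESeq2 called 3 entries where edgeR called 0; the cause was not tested. Among the 5 entries most like miR-210-3p in organs, Pearson's r shared 1, miR-252a-5p. No paired analysis was possible because the columns pool the libraries and carry no replicate number.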

Other observations

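A tissue index (tau, 0 for even levels and 1 for a single column) was 0.964 for miR-210-3p over the 18 stage columns, rank 11 of 107 entries with at least 50 CPM in a column, where the median was 0.716. Over the 11 organ columns it was 0.940, rank 35 of 110, where the median was 0.890. Tau cannot exceed 1, so the organ median left less room above it than the stage median, and the distances from these medians cannot be compared. In the organs the level was shared by the columns of worker brain (2871 CPM) and drone brain (5154 CPM), which lowers tau.

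The 3 entries that DESeq2's Wald test called between drone and worker organs were miR-989-3p, known from ovary, at a log2 difference of -1.89 (adjusted p 0.00530), miR-6057-5p at -4.64 (adjusted p 0.0425) and miR-31a-5p at 0.77 (adjusted p 0.0246). None of them was miR-210-3p, and edgeR's quasi-likelihood test called none of them.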
